A study of Mus musculus with 12 samples.

Results

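The 51 genes described here are nuclear genes for subunits and assembly factors of 4 mitochondrial complexes and for cytochrome c. They were taken by symbol and biotype: protein-coding genes whose symbols begin with Sdh followed by a, b, c or d, with Uqcr, with Cox followed by a digit from 4 to 8, or with Atp5, together with Cyc1 and Cycs, and with a normalized value of at least 10 in at least 3 of the 12 libraries. Of 54 annotated genes that meet the symbol rule, 52 are rows of the deposited table of 21492 genes, and 51 of those pass the value filter. They are 8 genes of complex II (4 subunits and 4 assembly factors), 9 of complex III, the cytochrome c gene Cycs, 16 of complex IV and 17 of complex V, the ATP synthase. Cox8c and a second annotated Atp5o gene are not analysed here. Cox8b, just below the filter, had values from 0 to 8.26 over the 12 libraries, and the lowest members inside it were Cox7b2, with 6.3 to 18.6, and Cox6b2, with 4.01 to 25.7.

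All animals were C57BL/6J males aged 70 days after birth, and the tissue was striatum. Input RNA is RNA of synaptosomes, the pinched-off nerve terminals with attached postsynaptic membrane that form when brain tissue is homogenized, and polysome RNA is the RNA bound to polyribosomes of such synaptosomes. Both were sequenced from wild-type (WT) mice and from mice carrying a Shank3 transgene (TG), with 3 libraries in each of the 4 groups. The promoter and cell type of the transgene, and whether the libraries of a group came from separate or pooled animals, could not be read from the labels, and the p-values therefore describe spread among these libraries only, some of which may be technical. Shank3, the gene added in the TG mice, ranged from 5456 to 17500 (normalized value) in input of TG against 2121 to 5858 in input of WT mice, and from 5012 to 12626 in polysomes of TG against 1501 to 5848 in polysomes of WT mice.

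Oxidative phosphorylation passes electrons from succinate (complex II, succinate dehydrogenase) through ubiquinone to complex III, on to the small soluble carrier cytochrome c, and then to complex IV (cytochrome c oxidase), which reduces oxygen. Complexes III and IV pump protons out of the mitochondrial matrix, and complex V lets them return to drive ATP synthesis. Complex II is encoded wholly in the nucleus, whereas complexes III, IV and V also hold subunits encoded by mitochondrial DNA. In brain, synaptic transmission is a large consumer of ATP, and nuclear-encoded mitochondrial proteins are made on cytosolic ribosomes.

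Sequences show why members of one family can be told apart and where the estimates are less certain. Atp5g1, Atp5g2 and Atp5g3 encode the same mature subunit c, the protein of the membrane ring that turns as protons pass through ATP synthase, behind different leader peptides. The coding sequences of the last 78 residues and the stop codon, 237 bases in each gene, translate to 1 protein sequence. They are given from the GENCODE M21 transcripts (GRCm38), with capitals at the 64 positions where the 3 genes do not all have the same base. The bases lie within chromosome 11 from 96073104 to 96073644 for Atp5g1, chromosome 15 from 102663014 to 102665175 for Atp5g2 and chromosome 2 from 73908593 to 73909305 for Atp5g3, introns included and all on the minus strand.
Atp5g1: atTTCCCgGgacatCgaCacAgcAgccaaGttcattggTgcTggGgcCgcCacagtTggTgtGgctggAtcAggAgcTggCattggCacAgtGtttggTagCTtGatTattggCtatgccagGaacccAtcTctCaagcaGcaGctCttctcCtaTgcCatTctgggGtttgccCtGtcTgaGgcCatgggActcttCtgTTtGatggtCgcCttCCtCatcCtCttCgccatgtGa
Atp5g2: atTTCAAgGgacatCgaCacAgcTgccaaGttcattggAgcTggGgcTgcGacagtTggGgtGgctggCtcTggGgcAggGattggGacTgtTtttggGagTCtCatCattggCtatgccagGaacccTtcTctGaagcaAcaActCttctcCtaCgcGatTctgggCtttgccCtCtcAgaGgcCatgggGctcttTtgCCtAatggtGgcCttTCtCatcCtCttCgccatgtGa
Atp5g3: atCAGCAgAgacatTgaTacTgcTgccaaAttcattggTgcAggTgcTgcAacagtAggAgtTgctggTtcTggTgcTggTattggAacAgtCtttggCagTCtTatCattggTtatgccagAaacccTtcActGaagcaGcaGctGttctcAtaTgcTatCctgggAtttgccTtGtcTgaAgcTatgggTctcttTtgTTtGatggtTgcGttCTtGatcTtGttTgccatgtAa
Atp5g1 and Atp5g2 differ at 36 of these bases (84.8% identical), Atp5g1 and Atp5g3 at 51 (78.5%), and Atp5g2 and Atp5g3 at 54 (77.2%). The longest run of identical bases is 21, 11 and 8 in these 3 pairs, shorter than the 31-base sequences used to measure sharing. Across whole genes, Atp5g2 shares 40.2% of its 31-base sequences with other genes, Atp5g1 14.1% and Atp5g3 0.0%. Of the 51 members, 7 share over 20% and 1, Sdhaf1, shares over 50% (69.9%), against a median of 5.5% for members and 1.6% over all genes tested. The estimates of these 7 could be divided with the genes that share the sequence. Sharing was counted on either strand, and whether it comes from copies elsewhere or from overlapping genes was not tested. The median difference of polysome from input, described below, was 0.40 in WT and 0.31 in TG for these 7, against 0.72 and 0.68 for the others.

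Promoters were described as sequence only, and whether a motif goes with the difference between polysome and input was not tested. RefSeq promoter windows of 250 bases before to 50 after the start (GRCm38.p6) matched 39 of the 51 genes. Atp5a1, Atp5mpl, Atp5s, Cox4i1, Cox4i2, Cox6a2, Cox6c, Cyc1, Sdhc, Uqcrb, Uqcrc2 and Uqcrq had no match. The palindromic 10-base core of the motif of nuclear respiratory factor 1 (NRF-1), a transcription factor known for respiratory chain genes, which is the part in capitals in the windows printed here, stood in 4 of the 39 windows (10.3%) and in 1.07% of all 27025 genes with such windows. The shorter GCATGCGC, which lies within that core, was present on either strand in 8 members (20.5%) and in 3.05% of all genes. CCGGAAGT and GGAAGTG, cores bound by ETS family factors that overlap each other, stood in 10.3% against 4.31% and in 15.4% against 12.5%. GGGCGG, the GC box, stood in 46.2% against 38.2%, TATAAA, the TATA box, in 7.69% against 15.7%, and the YY1 motif in 0 of 39 against 0.755%, both strands counted throughout. The 3 windows with the NRF-1 core before the start are given with that core in capitals, and the fourth, in Uqcrc1, lies past its start.
Atp5k, chr5:108434430-108434459, minus strand: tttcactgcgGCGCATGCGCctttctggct
Cox6a1, chr5:115349101-115349130, minus strand: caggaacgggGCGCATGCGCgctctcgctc
Atp5g2, chr15:102671070-102671099, minus strand: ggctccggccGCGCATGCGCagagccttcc
The core began 50 bases before the start in Atp5k, 162 in Cox6a1 and 42 in Atp5g2. A match describes the letters of the window and says nothing of binding. Of the genes with this core, Atp5k rose in polysomes against input in TG only by the unpaired limma fit described below. Atp5g2, Cox6a1 and Uqcrc1 rose in neither genotype by that fit. With same-numbered libraries paired, Atp5k and Atp5g2 rose in both genotypes.

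Depth, estimated from the step between low values, was 62.4 to 85.8 for input and 77.0 to 103 for polysome libraries, in units of 1000000 reads. The normalized value of 1 read was 1.26 to 1.8 for input and 0.609 to 0.839 for polysome RNA, so values near 10 rest on few reads. Mitochondrial ribosomal RNA took 43.7% ± 4.02 of the signal in input and 30.7% ± 4.77 in polysomes of WT, and 42.2% ± 3.98 and 26.0% ± 2.57 in those of TG (SD, n = 3). All 11 medium spiny neuron, 6 synapse, 6 astrocyte, 6 oligodendrocyte, 6 microglia and 6 endothelial and mural markers passed the value filter, so RNA of other brain cell types was measured too. The input libraries of number 3 stood apart for these genes. The median of the 51 members relative to the WT input mean was -0.37 (log2) for number 3 of WT and -0.48 for number 3 of TG input, whereas it was -0.01 to 0.28 in the other 4 input libraries and 0.45 to 0.85 in the 6 polysome libraries.

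**Figure D1:**
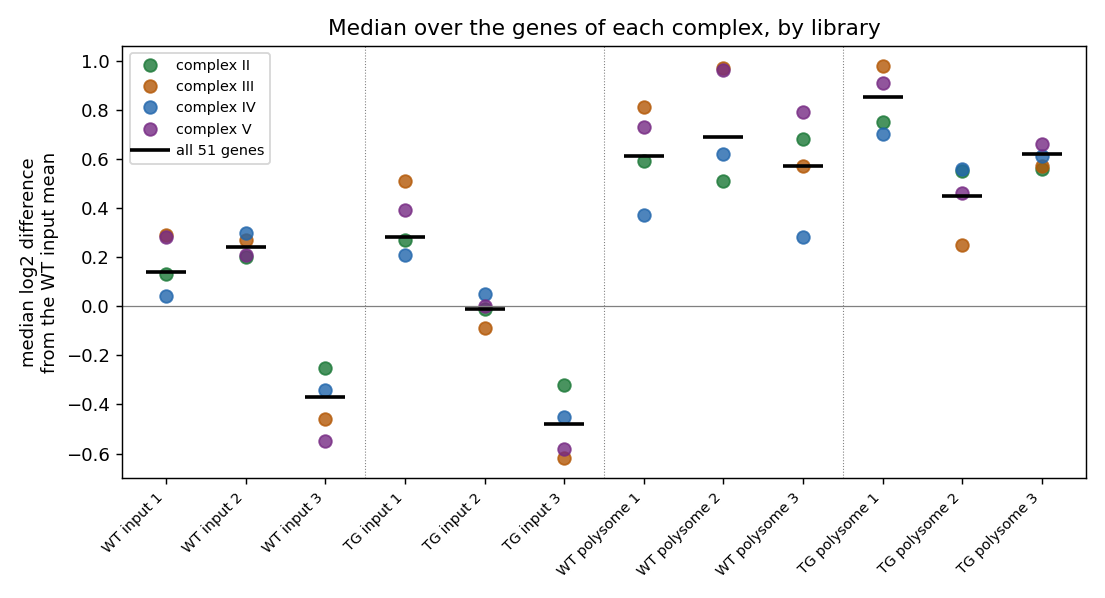
Median log2 difference from the WT input mean over the genes of complexes II, III, IV and V (coloured points) and over all 51 genes (black bars), for each of the 12 libraries. All 6 polysome libraries have medians over the 51 genes between 0.45 and 0.85, above every input library, and the input libraries of number 3 are lowest at -0.37 and -0.48.

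The first comparison was of polysome with input in WT, which asks how the share of a transcript among polysome RNA compares with its share among synaptosomal RNA. In WT, 16 of the 51 genes rose in polysomes (31.4%), against 5.36% of all 16962 genes tested, and 1 fell (1.96%), against 8.59%, by limma at an adjusted p under 0.05. The 16 include Cox6b2, whose WT input values all lie below the filter of 10. The median log2 difference of the members was 0.66, against 0.03 over all genes. In TG, 19 rose (37.3%), against a background of 8.19%, and 1 fell (1.96%), against 9.86%, with a median of 0.62 against 0.03. An unadjusted p under 0.05 was found for 30 members (58.8%) in WT, against 30.2% of all genes, and for 31 (60.8%) in TG, against 32.8%. The 13 genes that rose in both genotypes were Atp5d, Atp5e, Atp5g3, Atp5mpl, Cox5a, Cox5b, Cox7a2, Cyc1, Sdhaf4, Sdhb, Sdhc, Sdhd and Uqcrq, and the gene that fell in both was Cox7a2l. In these bulk samples, fewer cells or terminals of a type and less RNA in each cannot be told apart.

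Pairing the input and polysome library of the same number and genotype (the replicate block) raised these counts, to 29 higher and 4 lower in WT, against 13.9% and 15.9% of all genes, and to 28 higher and 3 lower in TG, against 16.7% and 16.6%. With the block, 26 members passed as higher and 3 as lower in both genotypes. The share of all genes that passed in both genotypes is not given here, with or without the block, so these counts have no background. Within the 6 pairs of libraries, 34 of the 51 genes (66.7%) were higher in polysomes in every pair, against 25.0% of all genes, and 4 (7.84%) lower in every pair, against 24.1%. The 3 polysome libraries lay wholly above the 3 input libraries for 28 members (54.9%) in each genotype, against 17.7% of all genes in WT and 17.6% in TG, and wholly below for 3 (5.88%), against 18.5% and 18.0%. Members' medians by pair were 0.46, 0.50 and 0.94 in WT for numbers 1, 2 and 3, and 0.42, 0.43 and 1.04 in TG, so the pair with the low input library gave the largest values in both genotypes. Without WT input 3, the count of members that rose in WT was 0, with a median of 0.44 and 1 library fewer in the fit. It was 12 without input 1 or input 2, and 6, 2 and 3 without polysome 1, 2 and 3. In TG it was 26, 7 and 3 without input 1, 2 and 3, and 2, 17 and 4 without polysome 1, 2 and 3, with a median of 0.43 without input 3. In the block fit with all libraries of number 3 left out, 24 members rose in each genotype, with medians of 0.49 and 0.41. With number 1 left out instead it was 22 in each, and with number 2 left out 0 in WT and 8 in TG, with medians of 0.70 and 0.72. Calls over all genes, in either direction, also varied. In WT they went from 2367 to 1849, 1375 and 648 without input 1, 2 and 3. Without polysome 1, 2 and 3 they were 1697, 1288 and 812. In TG they went from 3062 to 3263, 1552 and 1340 without input 1, 2 and 3. Without polysome 1, 2 and 3 they were 1358, 2865 and 1205. In the block fit without number 1, 2 and 3 they were 2841, 375 and 3669 in WT. The TG block fits gave 3490, 1321 and 4159.

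**Figure D2:**
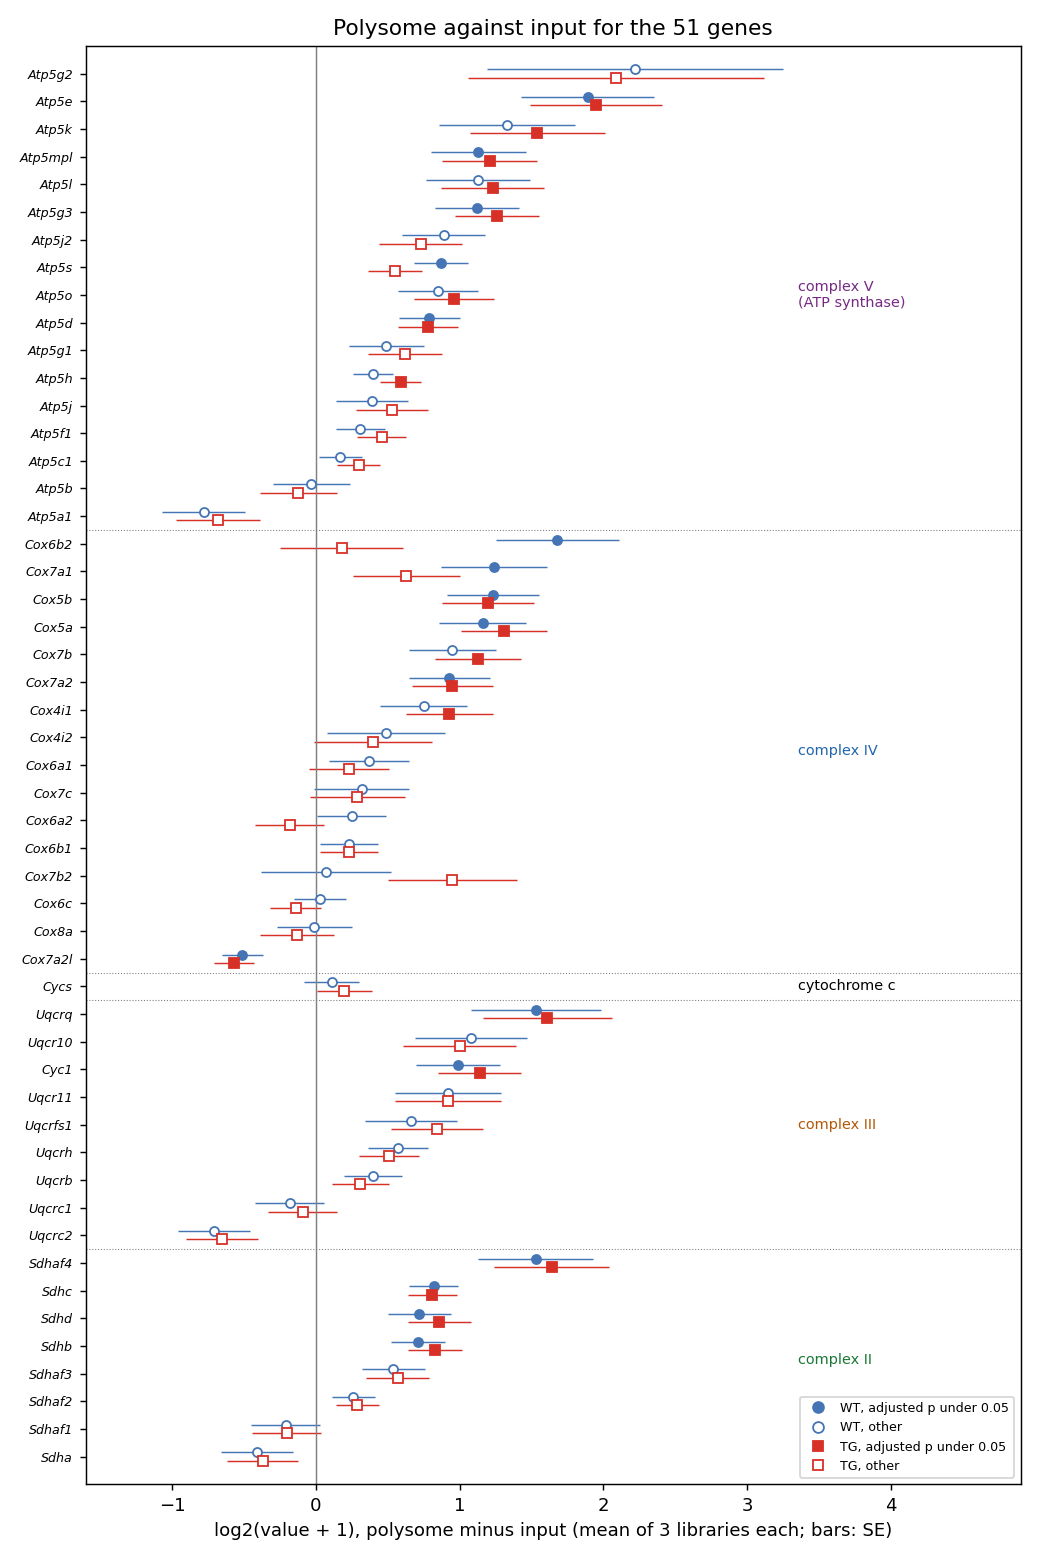
Log2 difference of polysome from input (log2(value + 1) scale) for each of the 51 genes, by complex, in WT (blue circles) and TG (red squares), with SE bars and filled symbols where limma's adjusted p was under 0.05. Most points lie right of 0, with 16 filled higher in WT and 19 in TG, while Cox7a2l is filled to the left in both and Atp5a1, Uqcrc2 and Sdha lie to the left unfilled.

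By complex, ATP synthase genes had the highest median and complex IV genes the lowest of the 4 complexes in WT, and complex III genes the highest in TG. In WT, the median log2 difference was 0.85 for ATP synthase, 0.66 for complex III, 0.62 for complex II, 0.43 for complex IV and 0.11 for Cycs. In TG it was 0.73, 0.84, 0.69, 0.34 and 0.20 in the same order. By count, where 5.36% of all genes rose in WT and 8.19% in TG, 4 of 8 complex II genes rose in each genotype, 2 of 9 complex III genes in each, 5 of 16 complex IV genes in each, and 5 of 17 ATP synthase genes in WT and 8 in TG. The ATP synthase median lay above the complex IV median in all 6 pairs of libraries, with 0.46, 0.70 and 1.01 against 0.30, 0.33 and 0.96 in WT, and 0.43, 0.45 and 1.16 against 0.31, -0.03 and 0.94 in TG. Complex II lay above complex IV in 4 of the 6 pairs. No test of the difference between complexes was made.

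Within complexes, medians differed between groups of subunits named by their roles. In complex III, the 5 small subunit genes had a median of 0.92 in WT and 0.92 in TG, and the 4 catalytic and core genes 0.24 and 0.37. The median coding transcript lengths of these 2 groups were 474 and 948 bases. In ATP synthase, the 5 F1 genes, of the catalytic head with the rotating stalk (Atp5d and Atp5e included), had medians of 0.17 and 0.30. They ranged from -0.78 to 1.89 in WT. The 3 genes of the c ring had 1.12 and 1.26. The 9 other genes, of the peripheral stalk and the rest of the membrane part, with Atp5s counted among them, had 0.87 and 0.73. Counts ran in another order. In WT, 40.0% of F1, 33.3% of c ring and 22.2% of the other genes rose, against 5.36% of all genes. In TG it was 40.0%, 33.3% and 55.6%, against 8.19%. In complex IV, the 10 genes of the forms used in most tissues had medians of 0.56 and 0.61, and the other 6 genes, 5 for alternative forms and Cox7a2l, 0.37 and 0.29. With numbers 1, 2 and 3 taken singly, the 10 genes of the common enzyme had medians of 0.23, 0.28 and 1.20 in WT and 0.29, 0.22 and 1.35 in TG, below ATP synthase for numbers 1 and 2 and above it for number 3.

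Complex II, the enzyme that oxidizes succinate in the citric acid cycle and hands the electrons to ubiquinone, rose in 3 of its 4 subunits in both genotypes. Sdhb, the iron-sulfur subunit, had normalized values of 4642, 4823 and 3591 (input) and 6881, 7985 and 6352 (polysome) for WT 1 to 3, and 5482, 4455 and 3320 (input) and 8087, 7428 and 7549 (polysome) for TG 1 to 3. All 6 polysome libraries lay above all 6 input libraries. Its log2 difference was 0.71 ± 0.19 (limma adjusted p = 0.0301) in WT and 0.83 ± 0.19 (limma adjusted p = 0.0131) in TG, and Sdhd, a membrane anchor, gave 0.72 ± 0.22 (limma adjusted p = 0.0484) and 0.86 ± 0.22 (limma adjusted p = 0.0213). Sdhc, the other membrane anchor, had values of 2572, 3289 and 2538 (input) and 4194, 5802 and 4853 (polysome) for WT 1 to 3, and 3324, 2786 and 2623 (input) and 5256, 4671 and 5349 (polysome) for TG 1 to 3. The lowest polysome library was above the highest input library. Sdhc rose by 0.82 ± 0.17 (limma adjusted p = 0.0105) in WT and 0.81 ± 0.17 (limma adjusted p = 0.00893) in TG, and it passed in 5 of 6 fits that each left out 1 library in WT and in 6 of 6 in TG.

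Sdha, the flavoprotein that binds succinate, did not follow its partners. Its values were 14053, 11160 and 8833 (input) and 10175, 9679 and 5994 (polysome) for WT 1 to 3, and 10389, 11134 and 9306 (input) and 8961, 9323 and 5924 (polysome) for TG 1 to 3. The groups overlapped, and the number 3 polysome libraries were lowest in both genotypes. The difference was -0.41 ± 0.25 (limma adjusted p = 0.283) in WT and -0.37 ± 0.25 (limma adjusted p = 0.316) in TG, below 0 in all 6 pairs, and with the replicate block it passed as lower in WT (adjusted p = 0.044) and missed in TG (adjusted p = 0.0556, limma). The ratio of Sdha to Sdhb was 2.6 ± 0.377 in WT input and 1.21 ± 0.268 in WT polysome libraries, and 2.4 ± 0.462 and 1.05 ± 0.241 in TG (SD, n = 3), with no overlap between fractions.

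Among the assembly factors of complex II, Sdhaf4, which binds the flavinated Sdha protein before the enzyme is put together, gave the largest rise of the complex. It is encoded on chromosome 1 from 23995939 to 24005656, minus strand (GRCm38, GENCODE M21). Its values were 401, 403 and 202 (input) and 896, 1062 and 821 (polysome) for WT 1 to 3, and 528, 313 and 133 (input) and 923, 794 and 921 (polysome) for TG 1 to 3. Every polysome library lay above every input library, and the input libraries of number 3 were lowest. The log2 difference was 1.53 ± 0.40 (limma adjusted p = 0.0272) in WT and 1.64 ± 0.40 (limma adjusted p = 0.0167) in TG, and it passed in 2 of 6 and 4 of 6 fits that each left out 1 library. Sdhaf3 had 0.54 and 0.57 and passed in both genotypes with the block and with the trend on coding transcript length removed. Sdhaf2, which attaches the flavin to Sdha, had differences of 0.26 and 0.29, and Sdhaf1, which serves the iron-sulfur subunit, -0.21 and -0.20, neither passing. Sdhaf1 had values of 532, 708 and 476 (input) and 415, 509 and 552 (polysome) for WT 1 to 3, and 541, 465 and 512 (input) and 516, 292 and 560 (polysome) for TG 1 to 3, which overlapped between all groups.

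In complex III, Uqcrq, a small subunit near the ubiquinone sites, rose most. It is encoded on chromosome 11 from 53427922 to 53430831, minus strand (GRCm38, GENCODE M21). Its values were 1005, 924 and 446 (input) and 2359, 2488 and 1706 (polysome) for WT 1 to 3, and 1622, 678 and 372 (input) and 2929, 1758 and 2256 (polysome) for TG 1 to 3. The polysome libraries of both genotypes lay above the input libraries, the closest being TG input 1 at 1622 and WT polysome 3 at 1706. The difference was 1.53 ± 0.45 (limma adjusted p = 0.0401) in WT and 1.61 ± 0.45 (limma adjusted p = 0.0283) in TG. Uqcr10, Uqcr11 and Uqcrh, the other small subunits whose genes passed with the block in both genotypes, had differences of 1.08, 0.92 and 0.57 in WT and 1.00, 0.92 and 0.51 in TG. Uqcrh had values of 5476, 5963 and 3983 (input) and 7758, 7247 and 7527 (polysome) for WT 1 to 3, and 6339, 4335 and 3942 (input) and 7595, 5465 and 7507 (polysome) for TG 1 to 3. Uqcrb, with 0.40 and 0.31, did not pass in either fit and had values of 2734, 4341 and 3380 (input) and 3949, 4691 and 4935 (polysome) for WT 1 to 3, and 2968, 4793 and 3674 (input) and 4543, 4774 and 4576 (polysome) for TG 1 to 3.

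The electron carriers of complex III were Cyc1, which holds the heme of cytochrome c1, and Uqcrfs1, the Rieske iron-sulfur protein. Cyc1 had values of 3504, 2442 and 1807 (input) and 5035, 5265 and 4544 (polysome) for WT 1 to 3, and 3581, 2103 and 1486 (input) and 5678, 4361 and 4806 (polysome) for TG 1 to 3. It was higher in every polysome library than in any input library, and lowest in the input libraries of number 3. Cyc1 rose by 0.99 ± 0.29 (limma adjusted p = 0.0418) in WT and 1.14 ± 0.29 (limma adjusted p = 0.0207) in TG. Uqcrfs1 had values of 3765, 3800 and 2056 (input) and 5397, 6111 and 3510 (polysome) for WT 1 to 3, and 4400, 2894 and 2011 (input) and 6076, 5720 and 4216 (polysome) for TG 1 to 3. Its groups overlapped, because polysome of number 3 lay within the range of the input libraries in each genotype. The differences, 0.66 ± 0.32 (limma adjusted p = 0.185) in WT and 0.84 ± 0.32 (limma adjusted p = 0.0859) in TG, passed with the block (adjusted p = 0.0105 and 0.00392, limma).

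The core proteins Uqcrc1 and Uqcrc2, the large matrix-facing subunits related to processing peptidases, did not rise. Uqcrc2 had values of 7906, 9177 and 9011 (input) and 6676, 6263 and 3567 (polysome) for WT 1 to 3, and 8611, 8849 and 8852 (input) and 6707, 6744 and 3857 (polysome) for TG 1 to 3. Every polysome library lay below every input library, and the polysome libraries of number 3 were the lowest. Its differences of -0.71 ± 0.25 (limma adjusted p = 0.0787) in WT and -0.65 ± 0.25 (limma adjusted p = 0.0931) in TG passed with the block (adjusted p = 0.0392 and 0.0489, limma) and with the trend on coding transcript length removed. Uqcrc1 had differences of -0.18 ± 0.24 and -0.09 ± 0.24. The ratio of Uqcrc2 to Uqcrc1 fell between 0.78 and 0.968 in the 6 input libraries and between 0.539 and 0.673 in the 6 polysome libraries.

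Cycs, the carrier between complexes III and IV and a trigger of apoptosis when it leaves the mitochondrion, had values of 4299, 6099 and 4197 (input) and 4872, 5563 and 5075 (polysome) for WT 1 to 3, and 4200, 6280 and 4366 (input) and 5620, 5868 and 5330 (polysome) for TG 1 to 3. The groups overlapped, and number 2 was the highest of the 3 input libraries in both genotypes. The difference was 0.11 ± 0.19 (limma adjusted p = 0.752) in WT and 0.20 ± 0.19 (limma adjusted p = 0.491) in TG. Cycs shares 29.4% of its 31-base sequences with other genes.

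In complex IV, Cox5a and Cox5b, small subunits that assemble around the mitochondrially encoded core, rose in both genotypes. Cox5b had values of 9205, 9967 and 5447 (input) and 14982, 25274 and 16944 (polysome) for WT 1 to 3, and 12348, 7009 and 5348 (input) and 19590, 14452 and 19997 (polysome) for TG 1 to 3. Every polysome library was above every input library, and WT polysome 2 was the highest. Cox5b gave 1.23 ± 0.32 (limma adjusted p = 0.0256) in WT and 1.20 ± 0.32 (limma adjusted p = 0.023) in TG, and Cox5a 1.16 ± 0.30 (limma adjusted p = 0.0237) and 1.31 ± 0.30 (limma adjusted p = 0.0122). Cox5a passed in 3 of 6 fits that each left out 1 library in WT and in 6 of 6 in TG. Cox6c, a subunit whose values ran from 7523 to 11265 among input and from 7238 to 9650 among polysome libraries, had differences of 0.03 ± 0.18 and -0.14 ± 0.18, and Cox7c 0.32 ± 0.33 and 0.29 ± 0.33.

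Cox4i1, the common form of subunit 4 and a much used mitochondrial marker, had values of 21077, 17926 and 10113 (input) and 26691, 25236 and 26972 (polysome) for WT 1 to 3, and 23334, 12661 and 10595 (input) and 28619, 25745 and 29550 (polysome) for TG 1 to 3. Polysome libraries were all above input libraries. It rose in TG, by 0.93 ± 0.30 (limma adjusted p = 0.0453), and had 0.75 ± 0.30 (limma adjusted p = 0.107) in WT, where it passed with the block (adjusted p = 0.0464, limma). Cox4i2, the lung form of subunit 4 that is regulated by oxygen, had values of 50, 64.1 and 48.3 (input) and 66.2, 131 and 50.4 (polysome) for WT 1 to 3, and 52.5, 119 and 54.9 (input) and 101, 123 and 63.9 (polysome) for TG 1 to 3. Its groups overlapped, with differences of 0.49 ± 0.41 (limma adjusted p = 0.452) and 0.40 ± 0.41 (limma adjusted p = 0.539). Per kb of exonic length it made up 0.698% ± 0.233 of the sum of both forms in WT input and 0.62% in WT polysome libraries.

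Cox6a1 and Cox6a2 are the liver and the heart and muscle forms of subunit 6a. Cox6a1 had values of 12158, 15363 and 7063 (input) and 13209, 15983 and 13487 (polysome) for WT 1 to 3, and 12603, 12319 and 7628 (input) and 14478, 10063 and 13061 (polysome) for TG 1 to 3. The groups overlapped, and its differences were 0.37 ± 0.28 (limma adjusted p = 0.403) in WT and 0.23 ± 0.28 (limma adjusted p = 0.613) in TG. Cox6a2 had values of 149, 192 and 155 (input) and 178, 214 and 198 (polysome) for WT 1 to 3, and 148, 219 and 184 (input) and 218, 120 and 157 (polysome) for TG 1 to 3. It overlapped as well, with 0.25 ± 0.24 (limma adjusted p = 0.521) in WT and -0.18 ± 0.24 (limma adjusted p = 0.654) in TG, and it took 1.58% ± 0.551 of the sum of both forms per kb of exonic length in WT input.

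Cox6b1 and Cox6b2 are the common and the testis form of subunit 6b, which joins the monomers of the enzyme. Cox6b1 had values of 7464, 9180 and 6016 (input) and 8081, 9552 and 8593 (polysome) for WT 1 to 3, and 8301, 7376 and 6220 (input) and 10171, 6858 and 8867 (polysome) for TG 1 to 3. Its groups overlapped, with differences of 0.23 ± 0.20 in WT and 0.23 ± 0.20 in TG that did not pass (limma adjusted p = 0.473 and 0.446). Cox6b2, on chromosome 7 from 4751792 to 4753094, minus strand (GRCm38, GENCODE M21), was near the lower limit of measurement, with values of 4.01, 7.81 and 4.13 (input) and 12.9, 25.7 and 19 (polysome) for WT 1 to 3, and 11.5, 14.6 and 12.9 (input) and 13.2, 13.6 and 18.1 (polysome) for TG 1 to 3. WT input was the low group, and TG input ran from below the polysome libraries into the lower part of their range. Cox6b2 rose by 1.68 ± 0.43 (limma adjusted p = 0.0239) in WT, on a few reads in each WT input library, and had 0.18 ± 0.43 (limma adjusted p = 0.814) in TG. It passed in 2 of 6 fits that each left out 1 library in WT and took 0.0442% ± 0.00998 of the sum of both forms per kb of exonic length in WT input.

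Subunit 7a has 3 genes of different character. Cox7a2 encodes the liver form, Cox7a1 the heart and muscle form, and Cox7a2l a related protein that joins complexes III and IV in supercomplexes. Cox7a2 had values of 4174, 5157 and 2488 (input) and 6786, 7917 and 6958 (polysome) for WT 1 to 3, and 4715, 3429 and 2581 (input) and 7853, 4982 and 7635 (polysome) for TG 1 to 3. Polysome libraries lay above input libraries in WT, and in TG the lowest polysome library, number 2, was just above the highest input library. Its rise was 0.93 ± 0.28 (limma adjusted p = 0.0453) in WT and 0.95 ± 0.28 (limma adjusted p = 0.0366) in TG.

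Cox7a2l, on chromosome 17 from 83501918 to 83517330, minus strand (GRCm38, GENCODE M21), moved the other way, with values of 5915, 6572 and 5745 (input) and 4309, 4261 and 4248 (polysome) for WT 1 to 3, and 6587, 5994 and 6223 (input) and 4734, 3563 and 4418 (polysome) for TG 1 to 3. The 6 polysome libraries lay below all 6 input libraries, and the spread within each group was small. It fell by 0.51 ± 0.14 on the log2 scale (limma adjusted p = 0.0337) in WT and by 0.57 ± 0.14 on the log2 scale (limma adjusted p = 0.017) in TG, and it also passed with the trend on exonic or coding transcript length removed. In WT the call was lost without any 1 of the 6 libraries, and in TG it held in 4 of 6 such fits and was lost without input 3 or polysome 2. The ratio of Cox7a2l to Cox7a2 was 1.67 ± 0.561 in WT input against 0.595 ± 0.0503 in WT polysome, and 1.85 ± 0.515 against 0.632 ± 0.0729 in TG (SD, n = 3). Per kb of exonic length, Cox7a2l made up 50.5% ± 7.75 of the 3 genes in WT input and 27.3% in WT polysome, and Cox7a2 49.2% ± 7.88 and 72.0%.

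Cox7a1 was low, with values of 13.7, 13.4 and 17.8 (input) and 28.5, 37.5 and 44.7 (polysome) for WT 1 to 3, and 30.7, 17.9 and 24.6 (input) and 38.9, 25 and 53.9 (polysome) for TG 1 to 3. WT input was the lowest group. It rose in WT by 1.24 ± 0.37 (limma adjusted p = 0.0417) and had 0.63 ± 0.37 (limma adjusted p = 0.255) in TG, and the WT call was lost in each of the 6 fits without 1 library. Of 7 muscle markers, 3 passed the value filter (Myh1, Myh2 and Myh7), and their summed level with the other listed genes was 563 to 897 in input and 403 to 427 in polysomes of WT, and 503 to 901 and 243 to 389 in those of TG. Whether other tissue adds to Cox7a1 or Cox6a2 was not tested.

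Cox7b, a subunit bound to the core late in assembly, had values of 4752, 6588 and 3055 (input) and 8182, 10032 and 8438 (polysome) for WT 1 to 3, and 6426, 4006 and 2900 (input) and 10846, 8631 and 8380 (polysome) for TG 1 to 3. The polysome libraries were all above the input libraries. Cox7b rose in TG by 1.13 ± 0.30 (limma adjusted p = 0.0225) and had 0.95 ± 0.30 (limma adjusted p = 0.0504) in WT, where it passed with the block (adjusted p = 0.00847, limma). Cox7b2, a second form, had values of 15.1, 6.3 and 11.7 (input) and 14.5, 7.06 and 12.8 (polysome) for WT 1 to 3, and 8.72, 9.18 and 7.59 (input) and 15.6, 17.9 and 18.6 (polysome) for TG 1 to 3. Its differences of 0.07 ± 0.45 (limma adjusted p = 0.941) in WT and 0.95 ± 0.45 (limma adjusted p = 0.159) in TG did not pass. Cox8a, the smallest subunit of the common enzyme and the gene with the highest level per kb of exonic length in WT input (23090 ± 5848, normalized value per kb, SD, n = 3), had values of 14194, 17962 and 10724 (input) and 14107, 14673 and 13015 (polysome) for WT 1 to 3, and 15702, 12860 and 9962 (input) and 14583, 7913 and 13345 (polysome) for TG 1 to 3. The groups overlapped, with TG polysome 2 lowest, and the differences were -0.01 ± 0.26 (limma adjusted p = 0.989) and -0.13 ± 0.26 (limma adjusted p = 0.769).

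**Figure D3:**
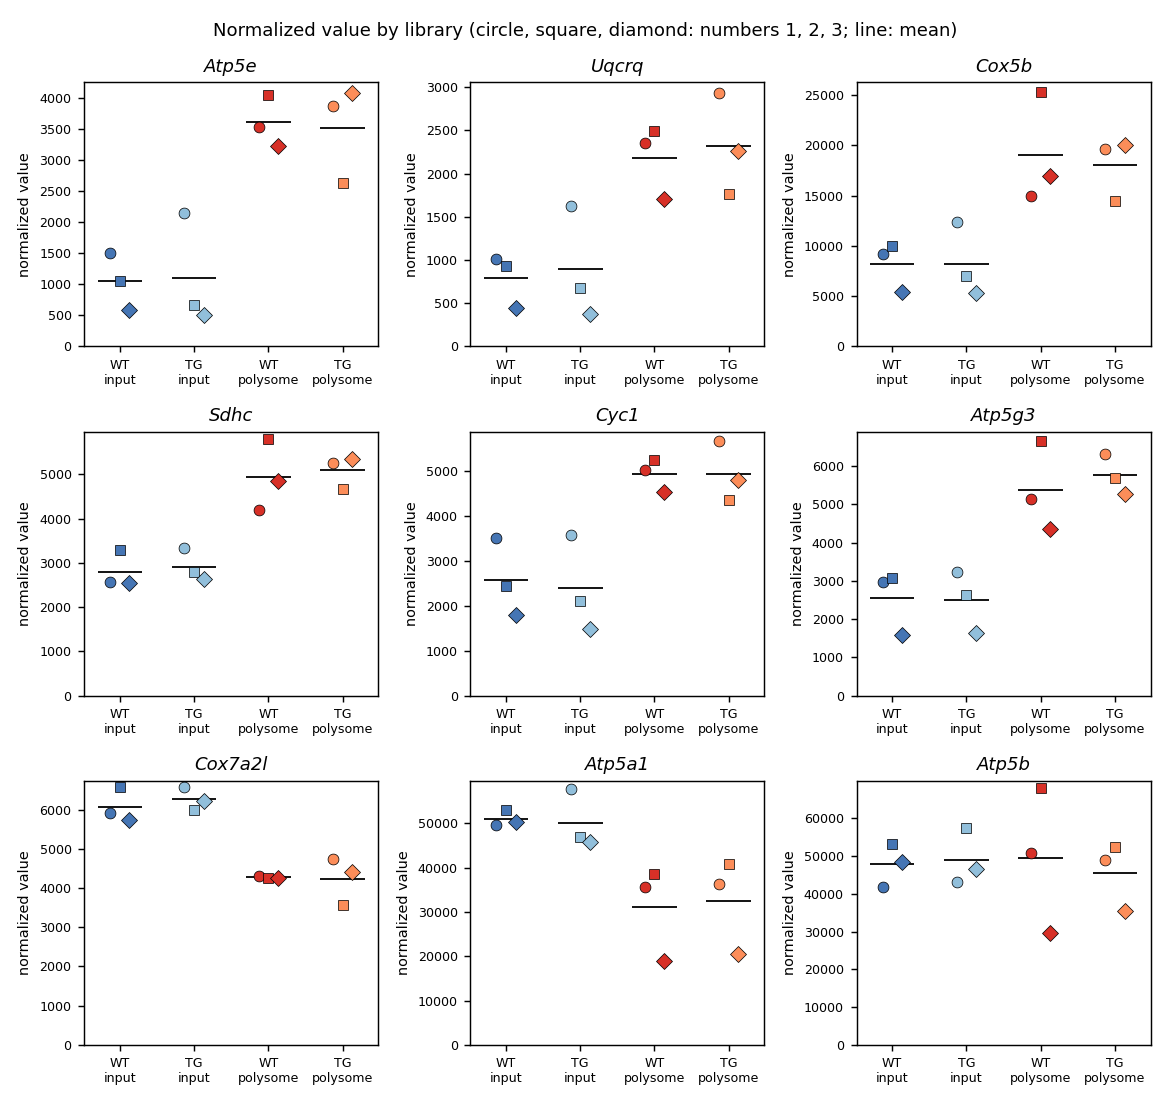
Normalized value of 9 genes in each of the 12 libraries, by group, with circles, squares and diamonds for numbers 1, 2 and 3 and a line at the mean of 3; each axis starts at 0. Atp5e, Uqcrq, Cox5b, Sdhc, Cyc1 and Atp5g3 are higher in all polysome than in all input libraries, Cox7a2l and Atp5a1 lower, and Atp5b overlaps, with input between 41838 and 57518 and polysome libraries between 29522 and 68006.

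In ATP synthase, Atp5e, the epsilon subunit at the foot of the rotating stalk, gave the largest rise of all called members. It is encoded on chromosome 2 from 174461072 to 174464105, minus strand (GRCm38, GENCODE M21). Its values were 1502, 1049 and 578 (input) and 3533, 4051 and 3233 (polysome) for WT 1 to 3, and 2152, 660 and 499 (input) and 3866, 2630 and 4072 (polysome) for TG 1 to 3. All 6 polysome libraries were above all 6 input libraries, the closest being TG input 1 at 2152 and TG polysome 2 at 2630. Atp5e rose by 1.89 ± 0.46 (limma adjusted p = 0.0201) in WT and 1.95 ± 0.46 (limma adjusted p = 0.0143) in TG, in all 6 pairs by 0.84 to 3.03, and passed with the trend on exonic or on coding transcript length removed. It passed in 3 of 6 fits that each left out 1 library in WT and in 2 of 6 in TG. Atp5d, the delta subunit beside it in the stalk, rose by 0.79 ± 0.21 and 0.78 ± 0.21 (limma adjusted p = 0.0277 and 0.0242).

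The catalytic hexamer of alternating alpha (Atp5a1) and beta (Atp5b) subunits did not rise. Atp5a1 had values of 49589, 53094 and 50206 (input) and 35614, 38560 and 18868 (polysome) for WT 1 to 3, and 57667, 46925 and 45753 (input) and 36260, 40728 and 20509 (polysome) for TG 1 to 3. All polysome libraries lay below all input libraries, and those of number 3 were lowest. The differences were -0.78 ± 0.29 (limma adjusted p = 0.0899) in WT and -0.68 ± 0.29 (limma adjusted p = 0.126) in TG, passing with the block (adjusted p = 0.0281 and 0.0426, limma). Atp5b had values of 41838, 53186 and 48447 (input) and 50700, 68006 and 29522 (polysome) for WT 1 to 3, and 43116, 57518 and 46621 (input) and 49027, 52275 and 35464 (polysome) for TG 1 to 3. Its groups overlapped, with polysome of number 3 the lowest in both genotypes. The differences were -0.03 ± 0.27 (limma adjusted p = 0.962) and -0.12 ± 0.27 (limma adjusted p = 0.811). The ratio of Atp5a1 to Atp5b, whose proteins are used in equal number, was 0.816 to 1.34 in the 6 input libraries and 0.567 to 0.779 in the 6 polysome libraries. Atp5c1, the gamma shaft of the same head, had differences of 0.17 ± 0.15 and 0.30 ± 0.15 that did not pass (limma adjusted p = 0.5 and 0.186).

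The 3 genes for subunit c, printed before as coding sequence, were all higher in polysomes in every pair of libraries, but at different levels and with different spread. Atp5g3 had values of 2959, 3086 and 1585 (input) and 5147, 6652 and 4359 (polysome) for WT 1 to 3, and 3227, 2640 and 1631 (input) and 6322, 5681 and 5271 (polysome) for TG 1 to 3. Every polysome library was above every input library, and Atp5g3 rose by 1.12 ± 0.29 (limma adjusted p = 0.0243) in WT and 1.26 ± 0.29 (limma adjusted p = 0.0127) in TG. Atp5g1 had values of 6069, 8996 and 4168 (input) and 7787, 9633 and 8364 (polysome) for WT 1 to 3, and 6788, 6084 and 4115 (input) and 9118, 7367 and 9203 (polysome) for TG 1 to 3. In WT the groups overlapped because input 2 was high, and the differences were 0.49 ± 0.26 (limma adjusted p = 0.228) in WT and 0.62 ± 0.26 (limma adjusted p = 0.116) in TG, where it passed with the block (adjusted p = 0.0437, limma).

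Atp5g2 had the lowest and most scattered values of the 3, 202, 144 and 6.17 (input) and 367, 296 and 195 (polysome) for WT 1 to 3, and 266, 69.1 and 31.4 (input) and 400, 428 and 268 (polysome) for TG 1 to 3. WT input 3 stood far below the other libraries, and the pair of number 3 alone gave 4.77 in WT. Its differences, 2.22 ± 1.03 (limma adjusted p = 0.166) in WT and 2.09 ± 1.03 (limma adjusted p = 0.179) in TG, were the largest of all 51 and passed with the block (adjusted p = 0.0404 and 0.0463, limma). Per kb of exonic length, Atp5g1 took 51.4% ± 5.12 of the 3 genes in WT input and 40.2% in WT polysome, Atp5g3 46.2% ± 3.77 and 55.9%, and Atp5g2 2.42% ± 2.11 and 3.91%. By coding transcript length, the order of the first 2 in WT input turned, to 39.3% for Atp5g1 and 58.2% for Atp5g3. The ratio of Atp5g1 to Atp5g3 lay between 2.05 and 2.92 in input, and between 1.3 and 1.92 among polysome libraries.

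Of 8 ratios between partner genes that were computed, chosen after the values were seen, these 5 (Sdha to Sdhb, Uqcrc2 to Uqcrc1, Cox7a2l to Cox7a2, Atp5a1 to Atp5b and Atp5g1 to Atp5g3) were lower in all polysome libraries. Cyc1 to Uqcrfs1 and Cox5a to Cox4i1 overlapped between fractions. Cox5b to Cox4i1 was higher in polysomes, at 0.561 to 1.0 against 0.437 to 0.556.

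**Figure D4:**
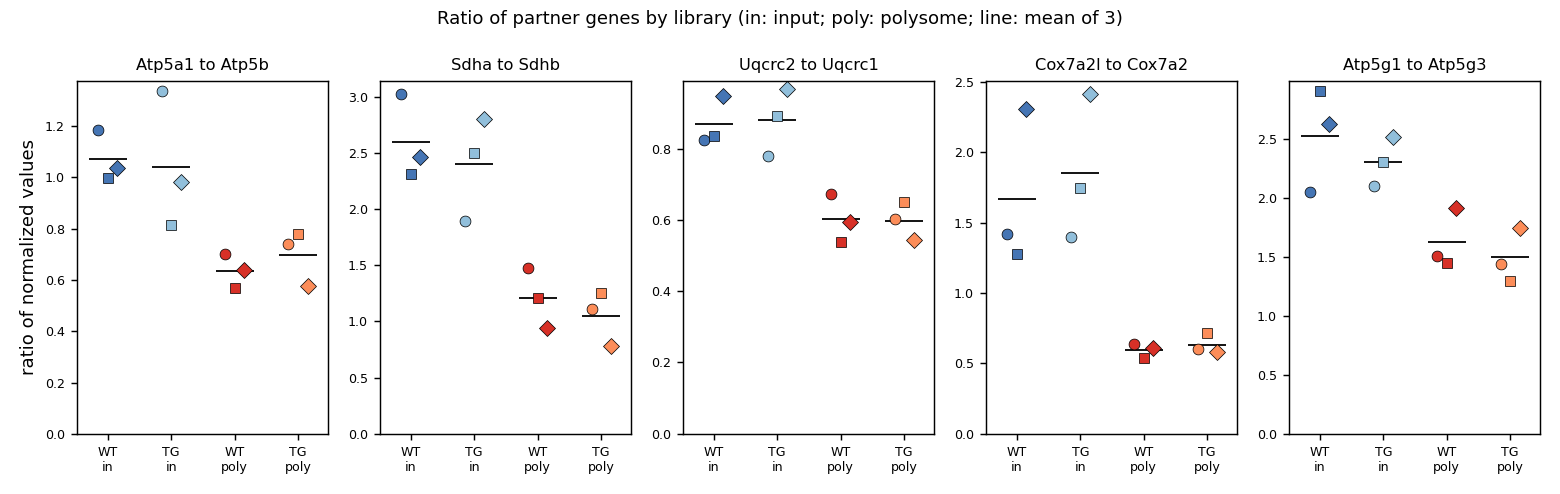
Ratio of the normalized values in each library for the 5 of 8 computed pairs of partner genes whose ratio was lower in all polysome libraries, by group, with the symbols of numbers 1, 2 and 3 as circles, squares and diamonds and a line at the mean of 3. In each panel the 6 polysome libraries lie below the 6 input libraries, for example 0.567 to 0.779 against 0.816 to 1.34 for Atp5a1 to Atp5b.

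The remaining genes of ATP synthase form the peripheral stalk, which holds the head still, and the membrane part. Atp5o, the subunit that caps the stalk on the head, had differences of 0.85 ± 0.28 (limma adjusted p = 0.0572) in WT and 0.96 ± 0.28 (limma adjusted p = 0.0319) in TG, and it shares 49.6% of its 31-base sequences with other genes. Atp5h, also in the stalk, rose in TG at 0.59 ± 0.14 (limma adjusted p = 0.0167) with 0.40 ± 0.14 in WT, while Atp5f1 and Atp5j, further stalk subunits, had 0.31 and 0.39 in WT and 0.46 and 0.53 in TG and did not pass, apart from Atp5f1 in TG with the block (adjusted p = 0.0132, limma). Of the small membrane subunits, Atp5mpl rose in both genotypes, by 1.13 ± 0.33 and 1.21 ± 0.33 (limma adjusted p = 0.0395 and 0.0257). Atp5k and Atp5l, which help hold dimers of the enzyme together, rose in TG by 1.54 ± 0.47 and 1.23 ± 0.36 (limma adjusted p = 0.0388 and 0.0332) and had 1.33 ± 0.47 and 1.13 ± 0.36 in WT (0.0754 and 0.0532). Atp5j2 had 0.89 ± 0.29 and 0.73 ± 0.29, and passed in neither genotype without the block but in WT with it (adjusted p = 0.0325, limma). With the block, Atp5o, Atp5h, Atp5k and Atp5l passed as higher in WT too (adjusted p = 0.0181, 0.0316, 0.0256 and 0.0105, limma).

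Atp5s, a gene annotated as a coupling factor of the enzyme and not one of its structural subunits, had values of 332, 311 and 265 (input) and 645, 482 and 537 (polysome) for WT 1 to 3, and 395, 300 and 266 (input) and 508, 409 and 475 (polysome) for TG 1 to 3. In each genotype, the 3 polysome libraries lay above the 3 input libraries. It rose in WT by 0.87 ± 0.19 (limma adjusted p = 0.0146), passing in 5 of 6 fits that each left out 1 library, and had 0.55 ± 0.19 (limma adjusted p = 0.0679) in TG.

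Members were shorter than most genes, and length went with the difference between fractions. Their median coding transcript length was 683 bases, against 2249 over all genes with one, and their median exonic length 1756 against 4147 bases. Across genes, Spearman's rho of the WT difference with coding transcript length was -0.48 over the 51 members and -0.35 over all 15011 genes with a length, and -0.34 and -0.35 in TG. With exonic length the relation was weaker over members, at -0.27 in WT and -0.20 in TG, against -0.36 and -0.35 over all genes. Genes are not independent replicates, and these points share the same libraries. By coding transcript length, the 26 members of up to 683 bases had a median difference of 0.93 in WT and 0.83 in TG, and the 25 longer ones 0.49 and 0.55. This length is the median over a gene's annotated coding transcripts and can misplace a gene. Uqcrc1, for example, has 533 bases by it and an exonic length of 4135 bases. Short length did not go with a rise in every case: Cox8a (550 bases), Cox6c (606) and Cox6b1 (486) lay within 0.23 of 0 in both genotypes.

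With the trend of the difference on exonic length over all genes removed, 3 members rose in WT (Atp5e, Atp5l and Sdhc; 5.88%), against 3.56% of all genes, and 5 in TG (Atp5e, Atp5g3, Atp5l, Cox5a and Sdhc; 9.8%), against 5.84%, with medians of 0.47 and 0.55. Cox7a2l fell in both, where 4.79% and 5.97% of all genes fell. With the trend on coding transcript length removed, an alternative added after the data were seen, 3 rose in WT, against 3.70%, and 6 in TG, against 5.73%, with medians of 0.51 and 0.49, and 2 fell in each (Cox7a2l and Uqcrc2), against 5.93% and 7.10%. Complex IV also lay below complex V after either correction, with medians of 0.07 and 0.63 in WT and 0.04 and 0.64 in TG under exonic length, and of 0.18 and 0.61, and 0.10 and 0.55, under coding transcript length. The 10 genes of the common form of complex IV had 0.24 and 0.31 under exonic length and 0.31 and 0.37 under coding transcript length in WT and TG. Whether length acts through the RNA or the library preparation was not tested.

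**Figure D5:**
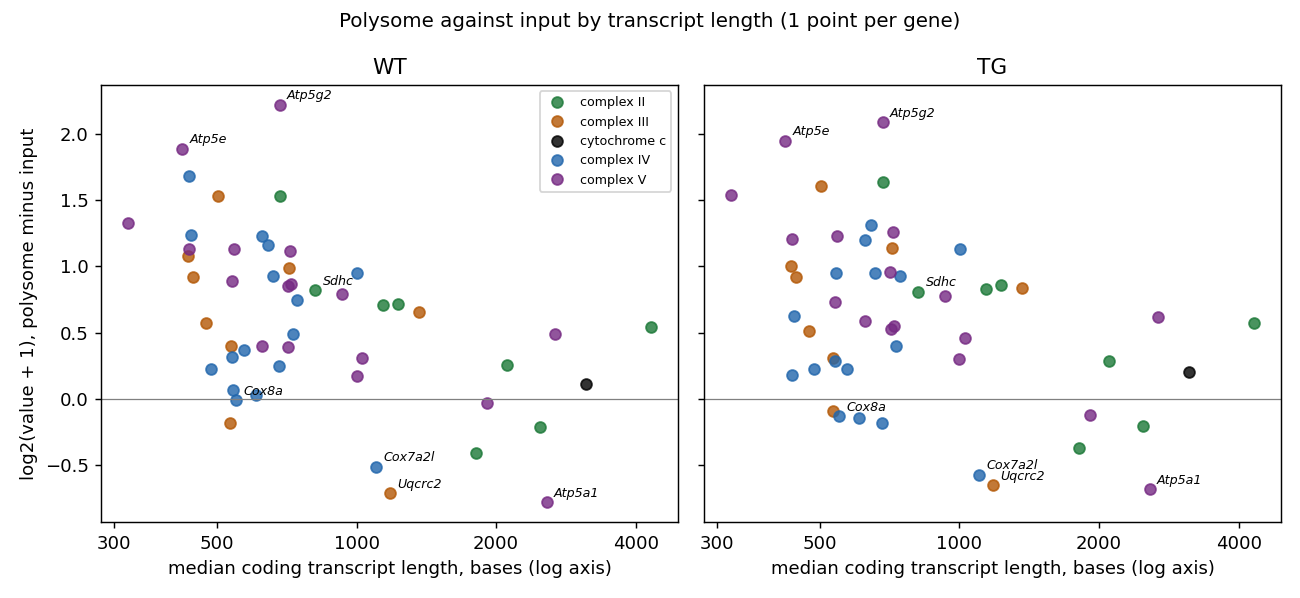
Log2 difference of polysome from input for the 51 genes against the median length of their coding transcripts (log axis, bases), in WT (left) and TG (right), coloured by complex, 1 point per gene. Short transcripts reach differences of about 1 to 2, for example Atp5e at 1.89 and 1.95, but some, such as Cox8a at -0.01 and -0.13, lie near 0, and long ones such as Atp5a1 lie below it.

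Other genes of the same pathways were taken from lists. Of 38 nuclear complex I subunit genes, 12 rose (31.6%, against 5.36% of all genes) and 1 fell (2.63%, against 8.59%) in WT with a median of 0.56. In TG, 15 rose (39.5%, against 8.19%) and 1 fell (2.63%, against 9.86%) with a median of 0.63. These values were near those of complexes II to V. Of 33 assembly factors for complexes III to V and heme attachment, 3 rose (9.09%, against 5.36% of all genes) and 1 fell (3.03%, against 8.59%) in WT with a median of 0.37, and 6 (18.2%, against 8.19%) and 1 (3.03%, against 9.86%) in TG with 0.42. The 3 that rose in WT were Fmc1 and Tmem70, both needed to assemble ATP synthase, by 1.36 ± 0.26 and 0.80 ± 0.20 (limma adjusted p = 0.0072 and 0.0207), and Coa3, a complex IV factor, by 0.89 ± 0.23 (0.0236). The ATP synthase factors Atpaf1 and Atpaf2 had 0.29 ± 0.23 and 0.33 ± 0.16 and did not pass. Lrpprc, which stabilizes mitochondrial messenger RNA, fell by 0.90 ± 0.26 on the log2 scale (0.0387).

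Of 13 citric acid cycle enzymes, the pathway that feeds complex II, 0 rose and 3 fell (23.1%) in each genotype by limma, against 8.59% of all genes lower in WT and 9.86% in TG, among them Cs (citrate synthase) and Fh1 (fumarase), with medians of -0.31 in WT and -0.43 in TG. In each genotype, 5 of the 13 (38.5%) were at an unadjusted p under 0.05, near the 30.2% and 32.8% of all genes. Cs and Fh1 had differences of -0.82 ± 0.23 and -0.75 ± 0.22 in WT (limma adjusted p = 0.0356 and 0.0389).

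The subunits that mitochondrial DNA contributes to complexes III, IV and V went the opposite way from most nuclear members. Of the 6 genes, 0 rose and 4 fell in WT by limma, with a median of -1.42, and 3 fell in TG, with a median of -1.88. The 4 that fell in WT are 66.7%, and 8.59% of all genes fell in WT and 9.86% in TG. In each genotype 4 (66.7%) were at an unadjusted p under 0.05, against 30.2% and 32.8%. mt-Cytb, the cytochrome b of complex III, averaged 190999 ± 47785 in WT input and 63229 ± 15053 in WT polysome libraries (SD, n = 3), a difference of -1.59 ± 0.29 (limma adjusted p = 0.00629). mt-Atp8, of ATP synthase, fell by 3.34 ± 0.28 on the log2 scale in WT (limma adjusted p = 2.82e-05), and mt-Co1, the catalytic subunit of complex IV, by 1.26 ± 0.32 (0.0231). mt-Atp6 and mt-Co2 had -0.92 ± 0.86 and -0.92 ± 0.69 and did not pass. Mitochondrial transcripts are translated on mitochondrial ribosomes. mt-Co1, mt-Co2, mt-Co3 and mt-Atp6 share 63.9% to 100% of their 31-base sequences with other genes, and mitochondrial ribosomal RNA was lower in the polysome libraries as well.

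Markers of other cells were compared beside these counts. Summed astrocyte markers were 356000 to 371000 in WT input and 210000 to 333000 in WT polysome libraries, and 337000 to 398000 and 226000 to 354000 in TG. Slc1a2 alone averaged 289974 of a summed mean of 363000 in WT input. By limma, 2 of the 6 astrocyte genes (Slc1a3 and Aldh1l1, 33.3%) fell in each genotype and 0 rose. Among all genes, 8.59% fell in WT and 9.86% in TG. Gfap, by contrast, had 0.35 ± 0.20 in WT and 0.36 ± 0.20 in TG and did not pass. Summed oligodendrocyte markers overlapped between fractions (229000 to 339000 against 213000 to 327000 in WT), as did microglia markers (26400 to 37400 against 30500 to 35500) and endothelial and mural markers (2000 to 2130 against 1940 to 2190). Single genes of these lists still passed. Mog, 1 of 6 oligodendrocyte genes (16.7%), rose in both genotypes, by 1.01 ± 0.20 in WT and 1.09 ± 0.20 in TG. Tmem119, C1qa and Cldn5 rose in TG only, and 0 genes of these 3 lists fell. Among all genes, 5.36% rose in WT and 8.19% in TG. None of these markers stood below the value filter. Their part in the members' differences was not tested.

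The second question was whether the Shank3 transgene changed these genes. In input, 0 of 50 members tested passed in TG against WT by limma (background 0.00%), and 0 were at an unadjusted p under 0.05, against 0.490% of all 16341 genes. The median difference was -0.04. In polysomes, 0 of 51 passed (background 0.00%) and 0 were under an unadjusted 0.05, against 0.325% of 16312 genes, with a median of 0.03. With the block, 0 members passed in either fraction, against 0.00% of all genes in input and 0.00613% in polysomes, which is 1 gene. That gene was among the 6 synapse markers, of which only Shank3 had a positive difference in polysomes. No complex had a median beyond -0.09 or 0.05, Cycs apart at 0.02 and 0.12. By pair of numbers the medians were 0.19, -0.22 and -0.03 in input and 0.17, -0.24 and 0.13 in polysomes, so in both fractions number 1 was above 0 and number 2 below it. The SE of a member's genotype difference was 0.13 to 1.28 in input and 0.13 to 0.39 in polysomes, with Atp5g2 the widest in input. Shank3 itself, the gene added in the TG mice, did not pass by limma without the block in either fraction. Its differences were 1.57 ± 0.49 in input and 1.53 ± 0.52 in polysomes, so these fits can miss changes of that size.

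The member of each complex with the smallest p in input was Cox6b2 in complex IV, at 1.19 ± 0.57 (limma adjusted p = 1.0), with values of 11.5 to 14.6 in TG and 4.01 to 7.81 in WT input. It entered this test only through the TG libraries, since the WT values lie below the filter of 10, so its direction and the lack of overlap are no support for a difference. The others were Sdhaf1 at -0.16 ± 0.20, Uqcrb at 0.13 ± 0.23, Atp5g1 at -0.14 ± 0.30 and Cycs at 0.02 ± 0.22. In polysomes they were Cox7b2 at 0.61 ± 0.39, Atp5s at -0.25 ± 0.18, Sdhb at 0.13 ± 0.15, Uqcrh at -0.15 ± 0.18 and Cycs at 0.12 ± 0.14, each with a limma adjusted p of 1.0. Beside Cox6b2, groups without overlap were found in input for Cox7a1, with TG higher as in 1.23% of all genes (1.39% had TG lower), and for 2 members in polysomes, Cox7b2 and Sdhaf2 (3.92%, against 1.37%). Medium spiny neuron markers had positive genotype differences in 11 of 11 genes in each fraction, against 47.1% of all genes in input and 53.4% in polysomes, with medians of 0.21 and 0.23 and 0 passing by limma (0 at an unadjusted p under 0.05), and oligodendrocyte markers in 6 of 6 in input and 5 of 6 in polysomes, with medians of 0.12 and 0.06. Their part here was not tested.

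The last comparison set the transgene effect in polysomes against that in input (the interaction), and it shares its libraries with the comparisons above. By limma 0 of 51 members passed (background 0.00%), and 1, Cox6b2, had an unadjusted p under 0.05, against 0.554% of all genes. The median over members was 0.04. Cox6b2 gave -1.50 ± 0.61 (limma adjusted p = 1.0), below 0 in all 3 sets of numbers at -1.30, -1.69 and -1.51, and rests on the low values given above. A WT input value below the filter enters each of the 3 sets, so their shared direction is no support for a difference. The other members with the smallest p in their complexes were Atp5s at -0.32 ± 0.27, Sdhb at 0.12 ± 0.27, Uqcrfs1 at 0.18 ± 0.45 and Cycs at 0.10 ± 0.27. The members called in only 1 genotype for polysome against input (Atp5s, Cox6b2 and Cox7a1 in WT, and Atp5h, Atp5k, Atp5l, Atp5o, Cox4i1 and Cox7b in TG) are therefore not shown to differ between genotypes.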

How the data were processed

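RNA was sequenced from input and polysome fractions of striatal synaptosomes, with a stranded total RNA kit per the labels' protocols. The deposited table holds, per gene and library, normalized values that are not whole numbers (a signal scaled by the authors). The submitters' processing notes name Salmon 1.1.0, DESeq2 1.26.0, R 3.6.2 and GRCm38, without roles; the annotation is not given in the sources used here. Of 21492 gene identifiers, 21465 matched GENCODE M21 (GRCm38), which gave symbols, positions and lengths. In values of up to 20 reads, 32.4% to 46.0% were whole multiples of the value of 1 read within 0.1 read, so no count test was used.

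Values were taken as log2(value + 1), a scale that understates changes of low genes, and fitted with limma 3.58.1 (R 4.3.3, empirical Bayes with a trend on level) over all genes with at least 10 in at least 3 fitted libraries, with Benjamini-Hochberg adjustment at 0.05. All 12 libraries entered the fit for polysome against input and for the interaction and the 6 of a fraction that for TG against WT. These comparisons share libraries, so their values are set side by side only. "Rose" and "fell" mean that the test passed. Differences are polysome minus input or TG minus WT, ± SE. Same-numbered libraries of different groups deviated together, with a correlation of 0.24 to 0.55 over 18 pairs. Over the members alone these 18 pairs gave -0.07 to 0.82. The 36 pairs of different number and group gave -0.41 to -0.0. Deviations from a group mean cancel within the group, so this lower range follows in part from the higher one and is no separate reference. The number served as a replicate block in the paired fit. What it marks (animal, pool or day) is not given in the sources used here. Shared sequence is the percentage of a gene's 31-base sequences also found in other genes. Length trends were removed by loess. Alternatives included scaling by trimmed means of M values (TMM), with the published formula. The fit was tested on simulated data with noise drawn independently for each library. The deviations that same-numbered libraries share were therefore absent, and changes were placed only in genes above a set level. Of changes of 1 on the log2 scale, it found 45% and 47% for polysome against input in WT and TG. It found 42% and 23% for TG against WT in input and polysomes, and 17% for the interaction, so many such changes would be missed. Of changes of 2 it found 76% to 90%. These rates need not hold for the real libraries, and the block fit was not simulated. Medians and ratios were computed with Python 3.11.15 and pandas 2.3.3.

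The members and lists were chosen with earlier results of these data known. Values in every library are given for the called genes with the largest rise and fall in each complex, families of alternative subunits, catalytic or electron-carrying subunits, and the member of each complex with the smallest p in each genotype comparison; ratios between partner genes, Cox5b, Cox4i1, Sdhc, Uqcrc2 and the remaining genes named were chosen after their values were seen.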

Additional observations from a re-analysis of the deposited data

How the results depend on the processing

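With 3 libraries a group, counts of calls depended on single libraries more than medians did, and a gene that missed the threshold is not shown to be unchanged. TMM scaling, other pseudocounts, other filters, no variance trend and leaving out genes with shared sequence kept every count of members within 1.5 times. The cause of the changes below was not tested, beyond fewer libraries in fits that left one out. With the replicate block, genes called for polysome against input went from 2367 to 5052 in WT and from 3062 to 5638 in TG, members higher from 16 to 29 in WT and members lower from 1 to 4 and 3; the block changed 1 gene's call in TG against WT polysome (1 called) and no member's call in a genotype comparison. With the exonic length trend removed, 1416 genes were called in WT and 2003 in TG, with 3 and 5 members higher; differences turned to -0.10, -0.13 and -0.26 for Cox6a2, Cox6b1 and Cox7b2 in WT, and to -0.07, -0.06 and -0.13 for Cox6a1, Cox6b1 and Cox6b2 in TG. With coding transcript length, added after the data were seen, 3 and 6 members were higher and 2 lower in each, with -0.04 and -0.20 for Cox6b1 and Cox7b2 in WT and -0.02, -0.02 and -0.07 for Cox6a1, Cox6b1 and Cox6b2 in TG. Fitting only the 6 libraries compared gave 0 members lower in each genotype, and in TG 1700 genes and 12 members higher. Leaving out 1 library gave 648 to 1849 genes, 0 to 12 members higher and 0 to 0 lower in WT, and 1205 to 3263, 2 to 26 and 0 to 1 in TG. The differences then ranged from -0.20 to 0.17 for Cox8a, -0.30 to 0.30 for Atp5b and -0.26 to 0.35 for Cox7b2 in WT, and from -0.30 to 0.14 for Cox8a, -0.22 to 0.06 for Atp5b, -0.01 to 0.38 for Cox6a1 and -0.40 to 0.03 for Cox6a2 in TG. For TG against WT input they were -0.16 to 0.20 for Cycs, -0.05 to 0.30 for Uqcrb, -0.42 to 0.14 for Atp5g1, -0.28 to 0.0 for Sdhaf1 and -0.27 to 0.14 for the members' median, with 0 to 1 genes called; in polysomes 0 to 1 genes and -0.23 to 0.01 for Uqcrh. For the interaction the members' median was -0.15 to 0.23, with 0 to 2 genes called, -0.08 to 0.28 for Cycs, -0.07 to 0.29 for Sdhb and -0.10 to 0.47 for Uqcrfs1. The block with a number left out was also added after the data were seen. Without number 2 it gave, for WT, 375 genes, 0 members higher, 0 lower and 0.14 for Cox8a; for TG, 1321, 8, 0, 0.16 for Cox8a and 0.16 for Cox6a2; for TG against WT input 6 genes, 0.07 for Atp5g1 and 0.06 for Sdhaf1; and 2 genes for the interaction. Without number 3 it gave 3669 genes, 3 members lower and 0.32 for Atp5b in WT; 3 lower, 0.02 for Atp5b and -0.05 for Cox6a1 in TG; and 2, 89 and 1 genes for TG against WT input, polysome and the interaction. Without number 1 it gave 1 and 3 genes for TG against WT input and polysome.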
